A study of Mus musculus with 8 samples.

Results

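The genes described are 10 genes listed as targets of p53 in DNA repair and growth arrest, in the livers of 8 male mice. These are Xpc, Ddb2, Rrm2b, Polk, Polh, Mgmt, Gadd45a, Btg2, Plk3 and Plk2. They were taken by symbol from a table of read counts for 49585 genes, and all 10 of the 10 were among the 16496 genes with enough counts to be tested. Every liver came from an animal fed a high-fat, choline-deficient diet (HFCD) for 3 months from 21 days of age, so no group on regular diet enters the comparisons. LP+/+ livers (n = 3) carried no Alb-Cre transgene and, beside 1 wild-type (WT) Trp53 allele, either an unrecombined floxed allele (Alb-Cre0, Trp53fl/+, replicates 1 and 2) or an unrecombined R245W allele (Alb-Cre0, Trp53wm-R245W/+, replicate 3). LPfl/+ livers (n = 2) were Alb-CreTG, Trp53fl/+ and lose 1 allele on recombination. LP245/+ livers (n = 3) were Alb-CreTG, Trp53wm-R245W/+, in which Cre switches 1 allele from WT p53 to p53R245W. Alb-Cre is driven by the albumin promoter and acts in hepatocytes and, through their shared precursor, in cholangiocytes, so Kupffer, endothelial and stellate cells of the same livers keep both Trp53 alleles intact. The study's text describes the LP+/+ cohort as carrying Alb-Cre and also names Cre-negative littermates as controls, and the sample labels, which give Cre-negative animals, were followed here. By those labels, every comparison with LP+/+ also compares livers with and without Cre, and the effects of Cre and of the Trp53 allele cannot be told apart. The question was whether these repair and arrest genes stand lower where 1 Trp53 allele is lost or mutant.

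p53 is a transcription factor that binds a sequence made of a pair of similar half-sites and turns on genes for cell-cycle arrest, apoptosis and repair. Of the members listed as its repair targets, Xpc and Ddb2 find damaged bases for nucleotide excision repair. Rrm2b helps to make deoxynucleotides in cells that are not dividing, and Polk and Polh encode DNA polymerases that copy past damaged bases. Whether p53 acts on each listed gene in mouse liver was not tested. Among the arrest targets, Gadd45a, Btg2, Plk2 and Plk3 slow the cell cycle or signal stress, and several of them also respond to growth factors and other signals that do not pass through p53.

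The sequence bound by p53 was looked for in the promoters of these genes, from 250 bases before to 50 bases after each annotated start, in RefSeq sequence of the GRCm38.p6 build. Windows were matched for 7 of the 10 members, all but Xpc, Ddb2 and Rrm2b, and they came to 9 windows. The p53 half-site, 10 bases long and read on both strands because it is its own reverse complement, was present without mismatch in 2 of the 9 windows and in 8.36% of all 32851 promoter windows. Pairs of half-sites at most 13 bases apart were searched, and only those that kept the central C and G of both half-sites were counted. A pair with no mismatch was present in 0.0731% of all windows, and one with at most 2 mismatches in 4.09%. Pairs with at most 3 were present in 15.6% and with at most 4 in 40.4%. A best pair with 3 or 4 mismatches is therefore common in such windows. Cdkn1a, which encodes the cell-cycle inhibitor p21, is shown beside the members because it is the gene of these livers with the clearest difference in the tests described further on. The half-sites of the best pair in each stretch are in capitals.
Cdkn1a: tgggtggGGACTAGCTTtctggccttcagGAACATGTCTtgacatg
Gadd45a: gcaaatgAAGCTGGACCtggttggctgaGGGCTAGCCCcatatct
Plk3: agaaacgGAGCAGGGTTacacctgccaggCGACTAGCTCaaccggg
Mgmt: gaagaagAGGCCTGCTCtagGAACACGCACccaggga
Polh: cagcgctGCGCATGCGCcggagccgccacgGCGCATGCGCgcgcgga
Btg2: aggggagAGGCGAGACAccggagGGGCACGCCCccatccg
The Cdkn1a stretch (chr17:29090899-29090944, plus strand) lies in the window of an upstream start of the gene and holds a pair with 0 mismatches, 12 bases apart. The Gadd45a stretch (chr6:67037431-67037475, minus strand) holds 1 exact half-site and 2 mismatches in the other. Plk3 (chr4:117134163-117134208, minus strand) and Mgmt (chr7:136894344-136894380, plus strand) had 3 mismatches over the pair, and Polh (chr17:46202719-46202765, minus strand) and Btg2 (chr1:134079200-134079239, minus strand) had 4. The best pair of Plk2, not printed, had 5. Polk had its exact half-site in the window of a start inside the gene (chr13:96519399-96519428, minus strand), printed here with the half-site in capitals.
Polk: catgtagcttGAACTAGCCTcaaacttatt
A match describes the letters of these short windows and does not show binding, and p53 sites farther away, such as those in introns, lie outside them.

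RNA was sequenced from each whole liver. Library totals reached 28500707, 30331374 and 31370714 counts for LP+/+ livers, 27741288 and 26345208 counts for LPfl/+ livers and 26304526, 28310329 and 29846962 counts for LP245/+ livers. The libraries fall into 2 series of library numbers. The first holds the 3 LP245/+ livers and LP+/+ replicates 2 and 3, and the second holds LP+/+ replicate 1 and both LPfl/+ livers. LP245/+ and LPfl/+ livers therefore never share a series, and only the LP+/+ livers, 1 in the second series and 2 in the first, link the series in a fit with the series as a covariate. Such a fit sets the LPfl/+ livers against LP+/+ replicate 1 and the LP245/+ livers against LP+/+ replicates 2 and 3. Its fold changes in LP245/+ compared with LP+/+ therefore nearly repeat those without LP+/+ replicate 1 and are not a separate check. The share of counts from the mitochondrial genome was 5.88% to 6.90% in LP+/+, 8.0% and 9.70% in LPfl/+ and 7.57% to 9.70% in LP245/+ livers, higher in all 5 livers with Cre than in the 3 without it, and its part in the results was not tested.

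Trp53 itself, the gene altered in these mice, was counted 234, 269 and 215 times in LP+/+ livers, 125 and 176 times in LPfl/+ livers and 306, 291 and 190 times in LP245/+ livers. Both LPfl/+ livers lay below all 3 LP+/+ livers, whereas the LP245/+ livers overlapped LP+/+. Its log2 fold change was -0.58 (SE 0.24) in LPfl/+ and 0.24 (SE 0.21) in LP245/+ compared with LP+/+, with edgeR adjusted p = 0.718 and 0.883. The first value was -0.37 without LPfl/+ replicate 1 and -0.86 without LPfl/+ replicate 2 (edgeR unadjusted p = 0.234 and 0.0188). The second was 0.09 without LP245/+ replicate 1 and 0.42 without LP245/+ replicate 3 (edgeR unadjusted p = 0.0457). Counts per gene do not separate WT from R245W transcripts, so they check the loss of an allele but not the switch to p53R245W. Defining hepatocyte genes were abundant in every liver. The 8 on the list summed to 99020, 127648 and 143461 CPM (counts scaled to libraries of equal size) in LP+/+, 106593 and 98664 CPM in LPfl/+, and 101419, 117014 and 117331 CPM in LP245/+ livers, most of it from Alb, which encodes albumin. Their median log2 fold change was -0.23 in LPfl/+ and -0.02 in LP245/+ compared with LP+/+. LP+/+ replicate 1 had the lowest level of Cyp3a11, a drug-metabolising cytochrome P450, at 240 CPM compared with 1290 and 1808 CPM in the other LP+/+ livers, and the part of this in its other values was not tested.

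None of the 10 members passed the cutoff in any comparison of genotypes, and Cdkn1a fell in LP245/+ livers. A gene was past the cutoff when edgeR's quasi-likelihood test gave it an adjusted p no higher than 0.05, taken over all 16496 genes, together with a log2 fold change no smaller than 1 in size. In LP245/+ compared with LP+/+, 0 of the 10 members and 0.00606% of all genes (1 gene, Cdkn1a) passed it. Cdkn1a had LP+/+ counts of 195, 144 and 195, LPfl/+ counts of 74 and 99 and LP245/+ counts of 14, 25 and 27, and every liver of a genotype lay below every liver of the one before. Compared with LP+/+ livers, its log2 fold change in LP245/+ was -2.91 (95% interval from -3.50 to -2.31, edgeR adjusted p = 0.0155). Without LP+/+ replicate 3 it was -2.85 (edgeR unadjusted p = 6.28e-06, adjusted p = 0.103). Without LP245/+ replicate 2 it was -3.00 (edgeR unadjusted p = 1.24e-05, adjusted p = 0.203). With a block for the replicate number it was -2.93 (edgeR unadjusted p = 7.23e-06, adjusted p = 0.0596). Against LPfl/+ livers, which also carry Cre but share no library series with LP245/+, Cdkn1a was at -1.96 (edgeR unadjusted p = 5.83e-05, adjusted p = 0.321). In LP245/+ compared with LP+/+, the lowest bound of any member's interval was -1.02, for Plk3. The interval of every member thus lay above that of Cdkn1a. In bulk tissue, fewer cells of a type and less RNA per cell cannot be told apart, and this holds for every gene described.

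In LPfl/+ compared with LP+/+, 0 of 10 members passed the cutoff and 0% of all genes did, and the same counts held for LP245/+ compared with LPfl/+. At an unadjusted p below 0.05, there were 0 members in LP245/+ compared with LP+/+ beside 5.93% of all genes, 1 member (Btg2) in LPfl/+ compared with LP+/+ beside 6.89%, and 1 (Polk) in LP245/+ compared with LPfl/+ beside 8.51%. In a trend test over LP+/+, LPfl/+ and LP245/+ coded 1, 2 and 3, 0 members passed an adjusted p of 0.05 beside 0.0121% of all genes (2 genes, Cdkn1a and Gm42047, the latter named after its values were seen), and 0 members had an unadjusted p below 0.05 beside 5.1%. The trend of Cdkn1a no longer passed without LP+/+ replicate 1 or 3, LPfl/+ replicate 1 or any 1 of the LP245/+ livers (edgeR adjusted p from 0.0639 to 0.229), or with the replicate block (0.157). Its slope was -1.42 per step with all livers, from -1.52 to -1.29 with each liver left out and -1.43 with the block. DESeq2 also called 0 members in each of the 4 tests. With so few livers these intervals still leave room for moderate differences, which are given gene by gene.

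The median log2 fold change of the 10 members was -0.18 for LP245/+ against LP+/+, 0.04 for LPfl/+ against LP+/+ and -0.04 for LP245/+ against LPfl/+, where the median of all genes tested was 0.00 in each. In these comparisons 6, 5 and 6 of the 10 had a negative value and 4, 5 and 4 a positive one. The values of LP245/+ and LPfl/+ share the LP+/+ livers and are not independent of each other. With the library series as a covariate, the median in LP245/+ compared with LP+/+ was -0.11. In LPfl/+ compared with LP+/+ it then lay between the values of Xpc and Rrm2b, at -0.07 and 0.01. In LP245/+ compared with LPfl/+ it lay between those of Gadd45a and Polh, at -0.07 and -0.06.

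**Figure D1:**
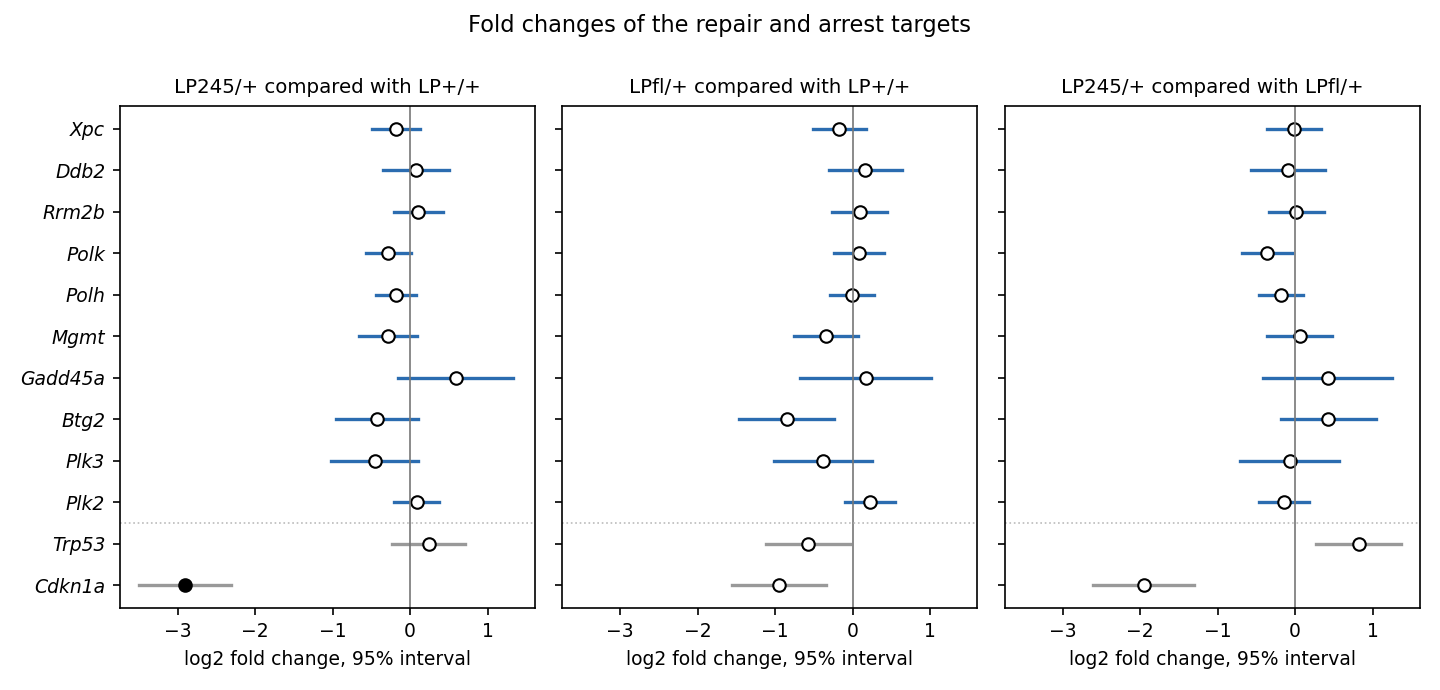
Log2 fold change (points) and 95% interval (lines) from edgeR for the 10 members and, under the dotted line, Trp53 and Cdkn1a, in 3 comparisons of genotypes; a filled point is past the cutoff. The member intervals gather around 0, with Btg2 in LPfl/+ and Polk in LP245/+ compared with LPfl/+ as the exceptions that leave 0 outside, while Cdkn1a in LP245/+ lies from -3.50 to -2.31.

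Xpc and Ddb2 are the damage sensors of nucleotide excision repair, and neither passed the test. Xpc (chr6:91489305-91515888 of GRCm38, as are the other gene positions, minus strand) was counted 750, 825 and 872 times in LP+/+ livers, 699 and 662 times in LPfl/+ livers and 520, 687 and 798 times in LP245/+ livers. Both LPfl/+ livers lay below the LP+/+ livers in CPM, and the LP245/+ livers ran from below the LPfl/+ livers up into the range of LP+/+. The log2 fold change of Xpc was -0.18 (SE 0.14) in LP245/+ and -0.17 (SE 0.15) in LPfl/+ compared with LP+/+, with edgeR adjusted p = 0.856 and 0.842. With each liver left out, the LP245/+ value ran from -0.34 without LP245/+ replicate 3 (edgeR unadjusted p = 0.0259) to -0.05 without LP245/+ replicate 1. The LPfl/+ value of Xpc was -0.07 with the series as a covariate. Ddb2 (chr2:91211572-91236982, minus strand), the partner of Ddb1 that recognises ultraviolet damage, had LP+/+ counts of 82, 89 and 110, LPfl/+ counts of 98 and 99 and LP245/+ counts of 107, 81 and 86. The livers of the 3 genotypes overlapped, and the log2 fold changes were 0.07 (SE 0.19) in LP245/+ and 0.16 (SE 0.21) in LPfl/+ compared with LP+/+ (edgeR adjusted p = 0.968 and 0.894). The value of Ddb2 in LP245/+ was -0.0066 without LP+/+ replicate 1 and -0.0764 without LP245/+ replicate 1, so its sign rests on either of these livers. With the series as a covariate it was -0.00703 in LP245/+, nearly the value without LP+/+ replicate 1, and 0.34 in LPfl/+. Ddb2 shares exon bases with Acp2 on the opposite strand, which had 1132 to 1635 counts, and reads of the pair cannot be told apart without the strand that was counted.

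The 16 partners of Xpc and Ddb2 in nucleotide excision repair, among them Xpa, Ddb1, Cetn2 and the Ercc genes, gave values on both sides of 0. All 16 were tested, 9 had a negative and 7 a positive value in LP245/+ compared with LP+/+, and their median was -0.03. None was past the cutoff, and 0 had an unadjusted p below 0.05 in either comparison with LP+/+. Ercc5, the endonuclease that cuts on the 3′ side of the damage, was the single one at an unadjusted p below 0.05 in LP245/+ compared with LPfl/+, with a value of -0.29 that was -0.15 (edgeR unadjusted p = 0.389) with the series as a covariate. It was counted 685, 608 and 659 times in LP+/+ livers, 701 and 714 times in LPfl/+ livers and 587, 565 and 565 times in LP245/+ livers. Ercc3, a helicase of the TFIIH complex, had the smallest p of the list in the trend, with LP+/+ counts of 682, 682 and 688, LPfl/+ counts of 539 and 675 and LP245/+ counts of 533, 574 and 551.

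Rrm2b (chr15:37923952-37961318, minus strand), the small subunit of ribonucleotide reductase that resting cells use, was the steadiest member over all livers. It had LP+/+ counts of 159, 156 and 142, LPfl/+ counts of 144 and 161 and LP245/+ counts of 155, 147 and 155, and its highest liver was at 1.22 times its lowest in CPM. The groups overlapped, and the log2 fold change was 0.11 (95% interval from -0.21 to 0.42) in LP245/+ compared with LP+/+ (edgeR adjusted p = 0.928), and 0.04 without LP+/+ replicate 3. Of the 10 other genes of deoxynucleotide supply, 9 were tested, and 8 of the 9 had a positive value in LP245/+ compared with LP+/+ with a median of 0.10, none of them at an unadjusted p below 0.05. Rrm2, the small subunit used in dividing cells, was counted 166, 130 and 183 times in LP+/+ livers, 104 and 112 times in LPfl/+ livers and 166, 145 and 167 times in LP245/+ livers. Both LPfl/+ livers were the lowest of the 8 for Rrm2, with a log2 fold change of -0.47 against LP+/+ and 0.58 for LP245/+ against them (edgeR adjusted p = 0.706 and 0.467).

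Polk and Polh, the polymerases that copy past damaged bases, were the members whose LP245/+ livers lay below all other livers. Polk (chr13:96480690-96542579, minus strand) had LP+/+ counts of 258, 294 and 354, LPfl/+ counts of 302 and 298 and LP245/+ counts of 232, 230 and 230. After scaling for depth this was 10.1 ± 1.49 CPM (SD, n = 3) in LP+/+, 10.7 ± 0.12 CPM (SD, n = 2) in LPfl/+ and 8.34 ± 0.16 CPM (SD, n = 3) in LP245/+ livers. The 3 LP245/+ livers were almost alike, and the lowest LP+/+ liver, replicate 1, stood just above them. The log2 fold change of Polk was -0.28 (95% interval from -0.57 to 0.01) in LP245/+ compared with LP+/+ and -0.36 (95% interval from -0.69 to -0.04) compared with LPfl/+, with edgeR unadjusted p = 0.0577 and 0.0316 and adjusted p = 0.831 and 0.538. In LPfl/+ compared with LP+/+, the value of Polk was 0.08 (SE 0.14), and -0.0104 without LP+/+ replicate 1. The value in LP245/+ compared with LP+/+ ran from -0.37 without LP+/+ replicate 1 to -0.17 without LP+/+ replicate 3 (edgeR unadjusted p = 0.0199 and 0.242). Polk, with the series as a covariate, was at 0.29 in LPfl/+ compared with LP+/+ and at -0.67 in LP245/+ compared with LPfl/+ (edgeR unadjusted p = 0.146 and 0.0160, adjusted p = 0.963 and 0.766).

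Polh (chr17:46171355-46202645, minus strand), which copies accurately past ultraviolet damage, was counted 279, 255 and 268 times in LP+/+ livers, 255 and 246 times in LPfl/+ livers and 208, 228 and 220 times in LP245/+ livers. The 3 LP245/+ livers were again below the other 5, by a small margin. Its log2 fold change was -0.18 (95% interval from -0.44 to 0.07) in LP245/+ and -0.0035 (SE 0.13) in LPfl/+ compared with LP+/+, with edgeR adjusted p = 0.841 and 0.996, and the LPfl/+ value was -0.08 with the series as a covariate. Of all genes tested, 2.23% (368 genes) had their 3 LP245/+ livers below the other 5 in CPM, beside 2 of the 10 members. Below the LP+/+ livers alone it was 5.08% (838 genes), beside the same 2 members. Whether these shares differ was not tested. Within the first library series, the log2 ratio of LP245/+ to LP+/+ was -0.37 for Polk and -0.14 for Polh. This ratio leaves out LP+/+ replicate 1, so for Polk it repeats the value without that liver.

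**Figure D2:**
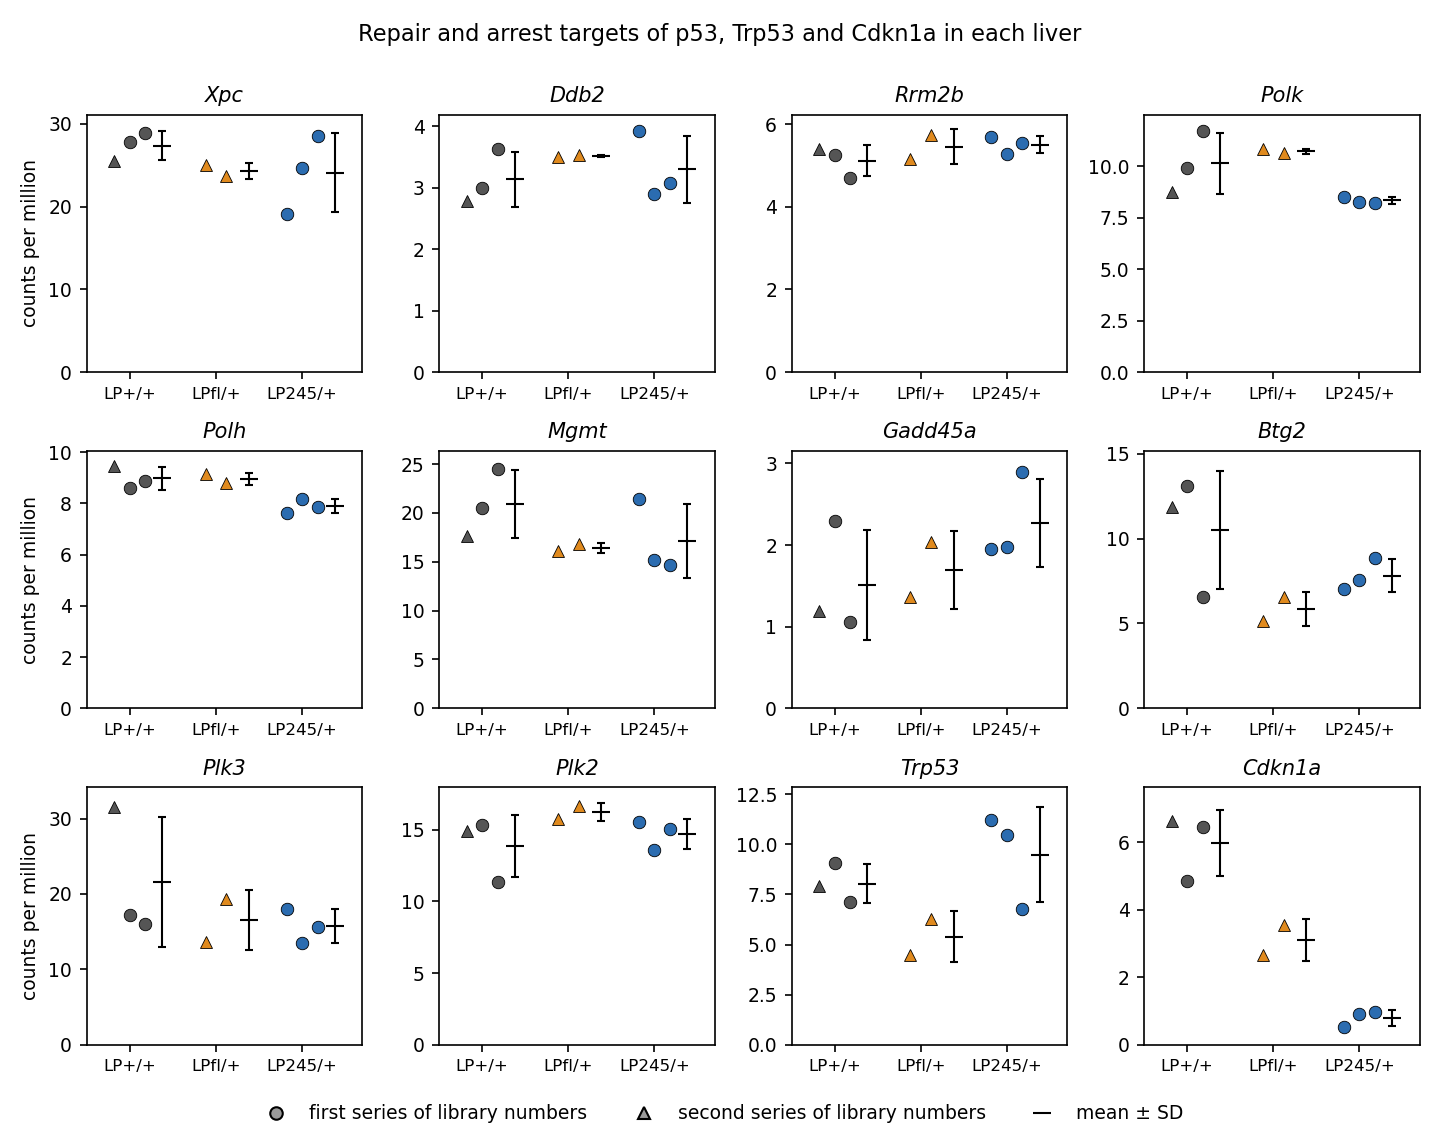
CPM of the 10 members, Trp53 and Cdkn1a in each of the 8 livers by genotype; circles and triangles mark the first and second series of library numbers, and the dash with its bar is the mean ± SD. In the panels of Polk and Polh the 3 LP245/+ livers lie below the other 5, in that of Plk3 a single LP+/+ liver stands apart, and only in that of Cdkn1a do all 3 genotypes separate.

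The partners of Polk and Polh gave values on both sides of 0. Of 12 genes of translesion synthesis, 11 were tested, 4 had a negative and 7 a positive value in LP245/+ compared with LP+/+, and the median was 0.0091. Mad2l2, a subunit of polymerase zeta, had LP+/+ counts of 418, 368 and 382, LPfl/+ counts of 404 and 373 and LP245/+ counts of 264, 330 and 242. All 3 LP245/+ livers were the lowest, with a log2 fold change of -0.38 compared with LP+/+ (edgeR unadjusted p = 0.0190, adjusted p = 0.795) and of -0.31 (edgeR unadjusted p = 0.0626) with the series as a covariate. Rev3l, the catalytic subunit of the same polymerase, was counted 1151, 1027 and 985 times in LP+/+ livers, 1203 and 1298 times in LPfl/+ livers and 1064, 1132 and 992 times in LP245/+ livers. The LPfl/+ livers were its highest 2, with a value of 0.34 (edgeR adjusted p = 0.697) that was 0.19 with the series as a covariate, and the LP245/+ livers overlapped LP+/+.

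Mgmt (chr7:136894614-137130266, plus strand), which removes alkyl groups from guanine in a single step, had LP+/+ counts of 518, 608 and 741, LPfl/+ counts of 449 and 471 and LP245/+ counts of 584, 424 and 411. Both LPfl/+ livers and 2 of the LP245/+ livers lay below all LP+/+ livers, whereas LP245/+ replicate 1 was within their range. The log2 fold change of Mgmt was -0.29 (95% interval from -0.66 to 0.08) in LP245/+ and -0.34 (95% interval from -0.76 to 0.07) in LPfl/+ compared with LP+/+, with edgeR adjusted p = 0.837 and 0.757. The value in LP245/+ compared with LP+/+ ran from -0.49 without LP245/+ replicate 1 to -0.16 without LP+/+ replicate 3 (edgeR unadjusted p = 0.0104 and 0.372), and in LPfl/+ from -0.45 without LP+/+ replicate 1 (edgeR unadjusted p = 0.0342) to -0.22 without LP+/+ replicate 3. With the series as a covariate, the values were -0.39 in LP245/+ and -0.10 in LPfl/+ (edgeR unadjusted p = 0.0399 and 0.677). Of 17 other genes of direct reversal and base excision repair, 15 were tested, 9 with a negative and 6 with a positive value in LP245/+ compared with LP+/+ and a median of -0.07. None of the 15 had an unadjusted p below 0.05 in any comparison. Xrcc1, the scaffold of single-strand break repair, came first of them in the trend, with LP+/+ counts of 431, 303 and 394, LPfl/+ counts of 347 and 261 and LP245/+ counts of 259, 300 and 297.

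Over all 8 livers, 3 of the 4 arrest and stress genes varied more between livers of the same genotype than any repair gene among the members. The coefficient of variation within a genotype was 27.7% for Btg2, 31.9% for Gadd45a and 32.8% for Plk3, and 10.6% for Plk2, compared with 4.12% for Polh, the lowest, and 17.7% for Mgmt, the highest of the repair genes. For Plk3 and Btg2 this rested on 1 control liver each. Without LP+/+ replicate 1 it was 16.03% for Plk3 beside 16.37% for Mgmt, and without LP+/+ replicate 3 it was 10.99% for Btg2 beside 16.32% for Mgmt, whereas Gadd45a stayed at 25.5% or more with any 1 liver left out. Gadd45a (chr6:67035096-67037457, minus strand), a stress-induced partner of the cell-cycle kinase CDK1 and of PCNA, was counted 35, 68 and 32 times in LP+/+ livers, 38 and 57 times in LPfl/+ livers and 53, 55 and 81 times in LP245/+ livers. The LP245/+ livers tended to the upper end, but LP+/+ replicate 2 lay among them. Its log2 fold change was 0.59 (95% interval from -0.16 to 1.33) in LP245/+ compared with LP+/+ (edgeR adjusted p = 0.834). It ran from 0.36 without LP245/+ replicate 3 to 1.01 without LP+/+ replicate 2 (edgeR unadjusted p = 0.358 and 0.00979). Gadd45a, which had the fewest mismatches to a p53 site among the 7 members with a promoter window, had a positive value in this comparison. E230016M11Rik, which shares exon bases with it on the opposite strand, had 41 to 145 counts, where Gadd45a itself had 32 to 81.

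Btg2 (chr1:134075170-134079120, minus strand), an antiproliferative cofactor of mRNA deadenylation, had LP+/+ counts of 349, 389 and 199, LPfl/+ counts of 143 and 183 and LP245/+ counts of 192, 210 and 248. LP+/+ replicates 1 and 2 were high, and replicate 3, the control with the unrecombined R245W allele, lay just above the LPfl/+ livers and below the LP245/+ livers in CPM. Btg2 had the largest member difference of LPfl/+ from LP+/+, a log2 fold change of -0.85 (95% interval from -1.47 to -0.24, edgeR unadjusted p = 0.0118, adjusted p = 0.697). In LP245/+ compared with LP+/+ the value was -0.43 (95% interval from -0.96 to 0.11), and all 3 LP245/+ livers lay above both LPfl/+ livers. The LP245/+ value rested on the control livers, at -0.68 without LP+/+ replicate 3 and -0.24 without LP+/+ replicate 2 (edgeR unadjusted p = 0.00341 and 0.352). Btg2 did not follow the order in which Cdkn1a descended. In 14 of 15 alternatives, all but the one without LPfl/+ replicate 1, its unadjusted p in LPfl/+ compared with LP+/+ was below 0.05, and its adjusted p was never below 0.224. Within the second series, the log2 ratio of the LPfl/+ livers to LP+/+ replicate 1 was -1.02.

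Plk3 (chr4:117128655-117133963, minus strand), a stress-responsive polo-like kinase, was counted 930, 509 and 485 times in LP+/+ livers, 382 and 543 times in LPfl/+ livers and 490, 376 and 438 times in LP245/+ livers. LP+/+ replicate 1 stood far above the other 7 livers, which overlapped across genotypes. The log2 fold change was -0.46 (SE 0.25) in LP245/+ and -0.39 (SE 0.28) in LPfl/+ compared with LP+/+, with edgeR adjusted p = 0.831 and 0.813. Without LP+/+ replicate 1 these values were -0.08 and -0.0049. With the series as a covariate, where that liver is the control of the LPfl/+ livers, they were -0.08 and -0.93 (edgeR unadjusted p = 0.649 and 0.00147, adjusted p = 0.950 and 0.395), so the size of both rests on that liver. Plk2 (chr13:110395046-110400844, plus strand), its relative, had LP+/+ counts of 440, 455 and 343, LPfl/+ counts of 441 and 467 and LP245/+ counts of 424, 378 and 421. Both LPfl/+ livers were its highest 2 in CPM, with a log2 fold change of 0.23 (95% interval from -0.10 to 0.55, edgeR adjusted p = 0.782) that was 0.09 without LP+/+ replicate 3 and 0.12 with the series as a covariate. Its value in LP245/+ compared with LP+/+ was 0.09 (SE 0.13), -0.0456 without the same liver and 0.14 with the series.

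Members whose livers did not overlap between a pair of genotypes were counted beside the same share of all genes. In LP245/+ compared with LP+/+, 2 of 10 members (Polk and Polh) were lower without overlap beside 5.08% of all genes, and 0 were higher beside 6.47%. In LPfl/+ compared with LP+/+, 3 members (Xpc, Mgmt and Btg2) were lower beside 12.4%, and 1 (Plk2) was higher beside 12.6%. In LP245/+ compared with LPfl/+, 3 members (Polk, Polh and Plk2) were lower beside 13.3%, and 1 (Btg2) was higher beside 12.1%. The order seen for Cdkn1a, with every LP+/+ liver above every LPfl/+ liver and those above every LP245/+ liver, was met by 0 of the 10 members and by 0.218% of all genes.

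Levels of different genes are compared per exon length, as TPM, the counts of a gene per base of its union of exons scaled to the same total in each liver. Plk3 was the highest member at 16.6 TPM on average over the 8 livers, followed by Mgmt at 14.6, Xpc at 10.6, Plk2 at 7.59 and Btg2 at 7.0 TPM. Polk stood at 3.99, Polh at 3.32, Ddb2 at 2.77, Gadd45a at 2.39 and Rrm2b, the lowest, at 1.35 TPM. The ranges over livers of all neighbours in this order overlapped, whereas members farther apart could be separated, such as Xpc, from 8.07 to 11.8 TPM, and Polk, from 3.10 to 4.75 TPM. With the longest transcript as the length, Polh came above Polk and Gadd45a above Ddb2. Polh was then at 5.19 TPM and Rrm2b, still the lowest, at 2.30 TPM.

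**Figure D3:**
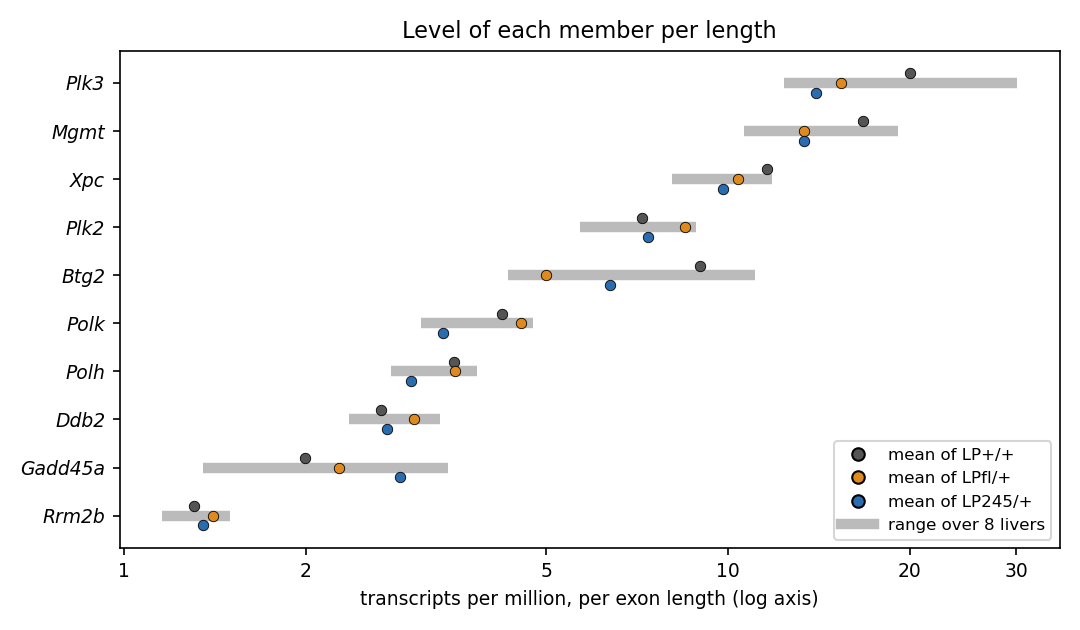
Level of each member in TPM per union of exons on a log axis; grey bars span the 8 livers and points are the means of LP+/+, LPfl/+ and LP245/+. The members run from Rrm2b at 1.35 to Plk3 at 16.6 TPM on average, with the widest bars for Plk3, Gadd45a and Btg2.

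How the members varied together over the 8 livers is given as a description, since the livers share genotypes, library series and depth. The highest Pearson correlation of log2 CPM between any pair of the 10 was 0.83, for Rrm2b and Plk2, and the lowest was -0.72, for Ddb2 and Btg2. Polk and Polh had 0.58, and Btg2 and Plk3 had 0.55. The genes whose pattern was most like that of Polk, the member with the smallest p in the trend, were Gm17196 with r = 0.97, Bzw2 with 0.94 and Prkaa1 with 0.94 (n = 8 livers). Prkaa1, a catalytic subunit of the energy sensor AMPK, was counted 601, 622 and 663 times in LP+/+ livers, 599 and 588 times in LPfl/+ livers and 550, 571 and 552 times in LP245/+ livers.

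Other p53 targets in arrest and growth control had a lower median than the 10 members in the same livers, a difference that was not tested. Of 17 on the list, 15 were tested, 13 of them with a negative value in LP245/+ compared with LP+/+, and the median was -0.40 where that of the 10 members was -0.18. The list was chosen with results of these livers known, so its direction is not independent evidence. Cdkn1a passed the cutoff, and Phlda3, Aen, Ccng1 and Eda2r, named after their values were seen, had an unadjusted p below 0.05 beside 5.93% of all genes. Aen, a nuclease of p53-driven apoptosis, had LP+/+ counts of 378, 441 and 409, LPfl/+ counts of 284 and 327 and LP245/+ counts of 219, 222 and 247. Its log2 fold change was -0.73 in LP245/+ and -0.33 in LPfl/+ compared with LP+/+ (edgeR adjusted p = 0.569 and 0.704), and its livers separated by genotype as those of Cdkn1a did. Eda2r, a receptor of the tumor necrosis factor family, was counted 19, 63 and 44 times in LP+/+ livers, 12 and 27 times in LPfl/+ livers and 7, 8 and 6 times in LP245/+ livers. In LPfl/+ compared with LP+/+, 12 of the 15 had a negative value with a median of -0.35, and the members had a median of 0.04. With the library series as a covariate, 12 of the 15 were again negative and the median of the list was -0.10. The median of the members then lay between the values of Xpc and Rrm2b, at -0.07 and 0.01, closer to that of the list. Both medians in that fit rest on LP+/+ replicate 1, the only control in the series of the LPfl/+ livers.

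The paralogues of the arrest members were examined as genes that share their families. Of 10 listed, 9 were tested, 7 with a negative value in LP245/+ compared with LP+/+ and a median of -0.25, and none passed the cutoff. Tob1, a relative of Btg2, had LP+/+ counts of 3147, 2168 and 1832, LPfl/+ counts of 2155 and 1978 and LP245/+ counts of 1728, 1642 and 1342. LP245/+ replicates 2 and 3 were its lowest livers, replicate 1 lay just above LP+/+ replicate 3 in CPM, and the log2 fold change was -0.50 (edgeR adjusted p = 0.806). Without LP+/+ replicate 1, its highest liver, the value of Tob1 was -0.23, and without LP+/+ replicate 3 it was -0.67 (edgeR unadjusted p = 0.127 and 0.00428). Gadd45g, a paralogue of Gadd45a, was counted 512, 68 and 105 times in LP+/+ livers, 409 and 867 times in LPfl/+ livers and 63, 46 and 78 times in LP245/+ livers. The 3 livers of the second library series were its highest and the 5 of the first its lowest, and LP+/+ replicate 1, the control of the second series, lay between the LPfl/+ livers. The log2 fold change of Gadd45g was 1.56 in LPfl/+ and -1.77 in LP245/+ compared with LP+/+ (edgeR adjusted p = 0.721 and 0.806). With the series as a covariate these values were 0.39 and -0.36. Without LP+/+ replicate 1, which leaves LP+/+ livers of the first series alone, the LPfl/+ value was 2.98 and passed the cutoff (edgeR adjusted p = 0.0104).

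**Figure D4:**
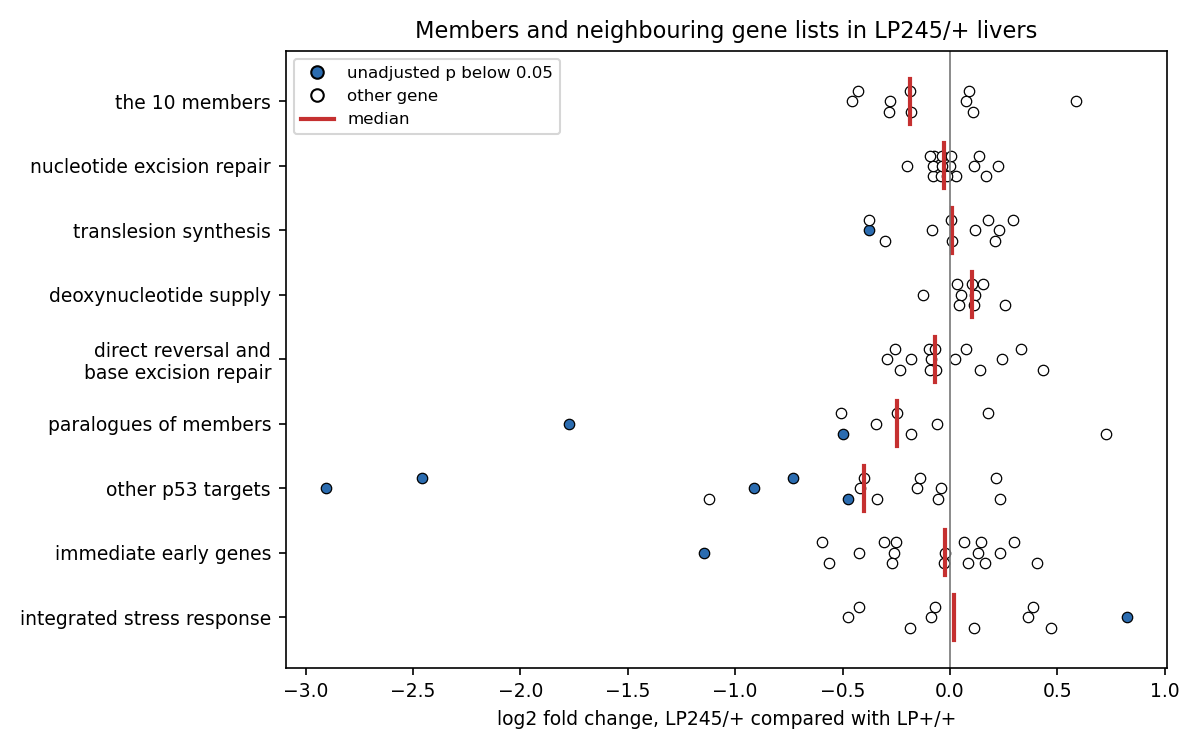
Log2 fold change of LP245/+ compared with LP+/+ for each tested gene of the 10 members and of 8 related gene lists; filled points have an unadjusted p below 0.05 and red lines are medians. The members and the repair lists lie close to 0 with medians from -0.18 to 0.10, and the other p53 targets extend to Cdkn1a at -2.91.

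Because Btg2, Gadd45a and Plk3 also answer to stress signals, genes of those signals were read in the same livers. Of 19 immediate early and stress-induced genes, 18 were tested, 10 with a negative and 8 with a positive value in LP245/+ compared with LP+/+, and the median was -0.03. Nr4a1, an immediate early nuclear receptor, had LP+/+ counts of 103, 38 and 35, LPfl/+ counts of 55 and 38 and LP245/+ counts of 24, 31 and 19. It was highest in LP+/+ replicate 1, the liver in which Plk3 was also highest, and whether these are linked was not tested. The summed level of the list was 145, 148 and 113 CPM in LP+/+, 141 and 139 CPM in LPfl/+, and 137, 137 and 133 CPM in LP245/+ livers. It was lowest in LP+/+ replicate 3, where Btg2 was also the lowest of the LP+/+ livers. Btg2 was lower still in the LPfl/+ livers, at 5.12 and 6.53 CPM, and whether these levels are linked was not tested. The 10 genes of the integrated stress response had 5 negative and 5 positive values in LP245/+ compared with LP+/+, with a median of 0.02, but 2 negative ones and a median of 0.17 with the library series as a covariate. Of the same genes, 8 of 10 were negative in LPfl/+ compared with LP+/+, with a median of -0.33. Fgf21, a hormone that the liver makes under metabolic stress, was counted 122, 122 and 134 times in LP+/+ livers, 73 and 68 times in LPfl/+ livers and 220, 188 and 213 times in LP245/+ livers. Its groups did not overlap, with a log2 fold change of 0.82 in LP245/+ and -0.75 in LPfl/+ compared with LP+/+ (edgeR adjusted p = 0.795 and 0.697) and of 1.57 in LP245/+ compared with LPfl/+ (edgeR adjusted p = 0.0818). Over all 8 lists, Cdkn1a in LP245/+ compared with LP+/+ was the single gene past the cutoff in a comparison of genotypes when edgeR was fitted to all 8 livers with the filter and no covariate. Other edgeR settings added calls. Cdkn1a, Fgf21 and Gadd45g each passed it in LP245/+ compared with LPfl/+ with only the 2 groups compared (edgeR adjusted p = 0.0470, 0.0107 and 0.00324), without LP+/+ replicate 1 (0.0265, 0.00583 and 0.00259) and without the filter on low counts. These 2 groups never share a library series. Gadd45g was at -3.34 in that comparison with all livers. With the series as a covariate, Gadd45g was at 0.39 in LPfl/+ and -0.36 in LP245/+ compared with LP+/+. With the same covariate, Cdkn1a and Fgf21 were at -1.73 and 1.52 in LP245/+ compared with LPfl/+ (edgeR adjusted p = 0.422 and 0.156). Myc in the same comparison (edgeR adjusted p = 0.0375) and Eda2r in LP245/+ compared with LP+/+ (0.0192) passed the cutoff without the filter on low counts. Myc had LP+/+ counts of 71, 30 and 37, LPfl/+ counts of 32 and 185 and LP245/+ counts of 23, 40 and 22. Its value in LP245/+ compared with LPfl/+, with the filter, was -1.92 with all livers, -0.16 without LPfl/+ replicate 2 and -0.81 with the series as a covariate (edgeR unadjusted p = 0.781 and 0.433 for the last pair), so it rests on that liver. With DESeq2, Cdkn1a and Eda2r passed the same cutoff in LP245/+ compared with LP+/+ (adjusted p = 6.17e-18 and 0.0234), and Aen and Fgf21 passed its adjusted p but not its fold change (adjusted p = 0.00883 and 0.0234). Cdkn1a and Fgf21 passed it with DESeq2 in LP245/+ compared with LPfl/+ (adjusted p = 2.06e-05 and 1.17e-07), and no gene of the lists did in LPfl/+ compared with LP+/+. In the trend, 6 of all genes passed an adjusted p of 0.05 with DESeq2. Among them were Cdkn1a, Aen and Eda2r (DESeq2 adjusted p = 1.37e-15, 0.000744 and 0.0255). The trend of Aen and Eda2r did not pass with edgeR (edgeR adjusted p = 0.288 and 0.914).

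Markers of other liver cells were read because cells outside the reach of Alb-Cre keep WT p53 and also contribute RNA. The 7 Kupffer cell and macrophage genes, led by Clec4f, summed to 275, 328 and 296 CPM in LP+/+, 389.5 and 284 CPM in LPfl/+, and 240.3, 288 and 275 CPM in LP245/+ livers. Their median log2 fold change was -0.34 in LP245/+ compared with LPfl/+, with 2 of 7 at an unadjusted p below 0.05 beside 8.51% of all genes. The 6 endothelial genes, led by Stab2, ranged from 306 to 491 CPM and the 6 stellate genes, led by Reln, from 431 to 557 CPM over all livers, with the genotypes overlapping. The 5 cholangiocyte genes, led by Spp1, ranged from 23.3 to 40.2 CPM. The 6 lymphocyte genes ranged from 2.26 to 6.93 CPM over all livers. Their median log2 fold change was -0.51 in LP245/+ and -0.45 in LPfl/+ compared with LP+/+, with 0 of 6 at an unadjusted p below 0.05. The 4 neutrophil genes, led by S100a9, summed to 1.83, 1.92 and 1.39 CPM in LP+/+, 2.61 and 2.86 CPM in LPfl/+, and 1.65, 1.58 and 2.36 CPM in LP245/+ livers. Both LPfl/+ livers were the highest, with a median log2 fold change of 0.75 compared with LP+/+. Of the 4 genes, 1 had an unadjusted p below 0.05 beside 6.89% of all genes. The neutrophil gene Ngp was at or below 3 counts in every liver. The 5 red blood cell genes, led by Hbb-bs, summed to 649, 683 and 489 CPM in LP+/+ livers, 345 and 449.7 CPM in LPfl/+ livers and 549.9, 324 and 643 CPM in LP245/+ livers. They had a median log2 fold change of -0.82 in LPfl/+ compared with LP+/+, with 3 of 5 at an unadjusted p below 0.05 beside 6.89% of all genes. In LP245/+ compared with LP+/+ their median was -0.34, with 1 of 5 at that level beside 5.93% of all genes. The part of these cells in the member values was not tested.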

How the data were processed

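RNA of 8 mouse livers was sequenced as stranded, paired-end total RNA libraries. The authors deposited raw read counts per gene, made by STAR alignment to GRCm38 and STAR counting on a GENCODE annotation. The STAR version, GENCODE release and counted strand are not given in the sources used here, so antisense and overlapping genes are uncertain. The table holds 49585 genes and 8 columns, each matched to a sample, with 26304526 to 31370714 counts per liver. Detection was set at 3 counts. Symbols came from GENCODE M21, which left 259 identifiers unnamed.

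The test of each gene was edgeR's quasi-likelihood test (edgeR 4.0.16 in R 4.3.3) after filterByExpr and TMM scaling, with all 8 livers in 1 fit and Benjamini-Hochberg adjustment over 16496 genes. CPM used TMM-scaled library sizes, and TPM was computed from the counts and exon lengths. The test was checked on simulated data. Nothing in the labels names the animal of each library, and p-values measure the spread between these livers. The 28 pairs of libraries differed beyond sampling noise. Labels number the replicates, but neither they nor the methods pair animals, so livers were analysed as unpaired.

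The members and lists were chosen with earlier results of these data known. Genes named are the members, Trp53, Cdkn1a, of each list the 3 with the smallest p in the trend and the 1 with the smallest p in each comparison, of which a part is printed, and the 3 most correlated with Polk. Alternatives covered DESeq2 1.42.0, other size factors, filters and cutoffs, only the 2 groups compared, the library series, a replicate block and each liver left out. Figures were drawn with Python 3.11.15 and matplotlib 3.10.9.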

Additional observations from a re-analysis of the deposited data

How the results depend on the processing

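Under every alternative tried, 0 of the 10 members passed the cutoff in the 4 tests, and the smallest adjusted p of any member was 0.224, for Btg2 in LPfl/+ compared with LP+/+ without the filter on low counts. Of 40 member values, 26 kept their direction in all alternatives and 14 reversed in at least 1. The cause of these changes was not tested.

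The number of all genes past the cutoff was 10, 9, 55 and 6 with DESeq2 in LP245/+ compared with LP+/+, LPfl/+ compared with LP+/+, LP245/+ compared with LPfl/+ and the trend, and 20, 14, 122 and 4 without the filter. With the series as a covariate it was 3, 3 and 10 in the 3 comparisons, and 51 in LP245/+ compared with LPfl/+ with only the 2 groups compared. With each liver left out in turn it ran from 0 to 5, 0 to 59, 0 to 47 and 0 to 1, with the highest counts of 59 and 47 both reached without LP+/+ replicate 1. Cdkn1a ran from -3.09 to -2.68 in LP245/+ compared with LP+/+ and did not pass the cutoff without LP+/+ replicate 3 or LP245/+ replicate 2, and in the trend it stayed past it only without LP+/+ replicate 2 or LPfl/+ replicate 2. The replicate block gave 0 genes in LP245/+ compared with LP+/+ and 0 in the trend. Cdkn1a was then at -2.93 and -1.43 per step, with an edgeR adjusted p of 0.0596 and 0.157. Deviations of same-numbered livers from their group means correlated from -0.08 to 0.03. In groups this small the deviations of a group are tied to each other, so these values cannot decide whether the numbers pair the livers. The block changed no call of a member.

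The number of members at an unadjusted p below 0.05 was 2, 2 and 1 without the filter in LP245/+ compared with LP+/+, LPfl/+ compared with LP+/+ and the trend, beside 4.82%, 5.38% and 4.44% of all genes, and 2, 2, 2 and 1 with the series in the 3 comparisons and the trend, beside 6.65%, 5.37%, 5.27% and 6.69%. With each liver left out it ran from 0 to 2 in each of the 4 tests, beside 3.87% to 7.76%, 4.3% to 11.7%, 6.45% to 10.8% and 3.3% to 6.3% of all genes. The median of the members in LP245/+ compared with LP+/+ was -0.11 with the series. With each liver left out it ran from -0.203 to -0.111, from -0.0742 to 0.0396 in LPfl/+ compared with LP+/+, and from -0.140 to 0.0225 in LP245/+ compared with LPfl/+.

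With the series as a covariate, Ddb2 in LP245/+ compared with LP+/+ reversed to -0.00703, and in LP245/+ compared with LPfl/+ Gadd45a reversed to -0.0712, Mgmt to -0.297, Plk2 to 0.0246 and Plk3 to 0.855 (unadjusted p 0.0110, adjusted p 0.674). That comparison then rests on LP+/+ replicate 1 as the link between the series, the liver in which Plk3 was highest.

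With each liver left out, some small values changed sign. In LP245/+ compared with LP+/+, Ddb2 ran from -0.0764 to 0.185 and Plk2 from -0.0456 to 0.156. In LPfl/+ compared with LP+/+, Rrm2b ran from -0.00391 to 0.156, Polk from -0.0104 to 0.190, Polh from -0.0469 to 0.0378 and Gadd45a from -0.167 to 0.581. In LP245/+ compared with LPfl/+, Xpc ran from -0.154 to 0.136, Rrm2b from -0.0608 to 0.0984, Mgmt from -0.130 to 0.155 and Plk3 from -0.301 to 0.205. In the trend, Ddb2 ran from -0.0259 to 0.0836 and Plk2 from -0.0295 to 0.0811 per step.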
